A study of Mus musculus with 16 samples.

Results

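The genes described here are the Toll-like receptors and co-receptors Tlr1, Tlr2, Tlr3, Tlr4, Tlr6, Tlr7, Tlr9, Cd14, Ly96 and Cd180, chosen by symbol. All 10 were found among the 17951 genes of the deposited table. They were measured by bulk RNA sequencing of microglia sorted from mouse brain as Cd11b and Cd45 positive cells, and the methods of the study add CX3CR1 to the gate. Every animal had been injected with methoxy-X04 (Me-X04), a brain-permeable dye that stains the beta-sheets of amyloid beta (Aβ), so that a cell with the dye is one that took up Aβ. The 16 libraries were 7 of WT microglia without the dye, 5 of microglia without the dye from 5xFAD transgenic mice (TG Me-X04-) and 4 of microglia with the dye from the same line (TG Me-X04+). The transgenes of the 5xFAD line are driven by the neuronal Thy1 promoter. The labels give 2 months as the age of the WT mice and 6 months as that of the TG mice, while the methods of the study give other ages, so in the comparisons with WT the genotype and the labelled age cannot be told apart. By the labels, 4 TG animals each gave a library of both sorts, under a shared replicate number.

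Toll-like receptors are membrane proteins of innate immune cells that recognise molecules shared by many microbes, and some also respond to the cell's own lipids, nucleic acids and protein aggregates. Tlr1, Tlr2, Tlr4 and Tlr6 sit at the cell surface and bind lipids and lipopeptides, whereas Tlr3, Tlr7 and Tlr9 sit in endosomes and bind nucleic acids. Tlr4 works with Ly96 (MD-2) and Cd14 in binding lipopolysaccharide, Tlr2 pairs with Tlr1 or Tlr6, and Cd180 (RP105) is a receptor homologue without the signalling domain that pairs with Ly86 (MD-1). Microglia are the brain cells best known for these receptors, and Tlr2, Tlr4, Tlr6 and Cd14 have been studied as surface proteins that bind fibrils of Aβ.

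The values are log2 RPKM, the log2 of reads per kilobase of gene and per sequencing depth, as deposited by the authors. The libraries held 15623664 to 27579017 reads on the listed genes. They fell into 2 sets along the first principal component of their deviations from the group means, which held 37.8% of that variance, with 7 libraries in set A (WT replicates 1 to 3 and both TG groups' replicates 1 and 2) and 9 in set B. The study used 2 sequencers in succession without naming which library ran on which, and whether the sets follow them was not tested. Reads of mitochondrial genes took 11.0% to 24.1% of the reads in WT, 18.2% to 35.6% in TG Me-X04- and 27.2% to 44.8% in TG Me-X04+ libraries. Differentially expressed (DE) genes were those with an adjusted p below 0.05 in limma, fitted on all genes, whose log2 fold change (log2FC) reached 0.7 in either direction. Of all genes, 5.49% were DE in TG Me-X04+ against TG Me-X04- microglia, 3.44% higher and 2.06% lower in TG Me-X04+. Scaling by the reads outside mitochondrial genes moved the median log2FC of all genes in that comparison by -0.39, and higher genes then made up 20.8% of the calls in place of 62.6%. In TG Me-X04+ against WT that scaling moved the median by -0.30 and the share of higher calls from 57.8% to 32.8%, and quantile normalization gave 50.8% in the former comparison and 53.8% in the latter. All 8 microglia markers were read in every group, with a summed level of 3996 to 7983 RPKM per library, of which Cx3cr1, Itgam and Ptprc encode proteins of the gate. Of the markers of other cells, the summed level per library was at most 1.91 RPKM for neurons (3 of 6 markers in the table), 7.05 for oligodendrocytes (3 of 4), 29.4 for astrocytes (4 of 5), 12.6 for endothelial cells (3 of 4) and 4.47 for B cells (2 of 4). The endothelial marker Flt1 averaged -3.18 log2 RPKM in TG Me-X04- libraries, against 0.37 in those with the dye. The other endothelial markers in the table went the other way, Pecam1 from 0.53 to -1.94 and Cdh5 from -1.25 to -3.67. The 2 neutrophil markers of 5 in the table summed to a median of 0.32 RPKM in TG Me-X04- (highest 19.6) and 6.08 RPKM in TG Me-X04+ libraries (highest 7.49), and Ccr2, the only monocyte marker of 3, to 1.37 to 2.61 and 0.75 to 1.23 RPKM. The 5 border macrophage markers summed to 1.67 to 6.81 RPKM in TG Me-X04- and 2.69 to 20.1 RPKM in TG Me-X04+ libraries, and the 8 genes of the response to cell isolation to 67.6 to 106 RPKM in TG Me-X04- and 85.8 to 149 RPKM in TG Me-X04+ libraries. Their part in the differences below was not tested, and in bulk samples a smaller share of cells with a transcript and less of it per cell cannot be told apart.

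The positions of the genes, and the sequence some share with others, bear on how reads could be assigned. By Gencode M21 on GRCm38, Tlr2 lies at chr3:83836272-83841767 (minus strand), Tlr4 at chr4:66827584-66930284 (plus), Tlr9 at chr9:106222598-106226883 (plus), Ly96 at chr1:16688051-16709611 (plus), Tlr7 at chrX:167304929-167330558 (minus) and Tlr3 at chr8:45395665-45411080 (minus). Cd180 lies at chr13:102693558-102739629 (plus) and overlaps Mast4 on the opposite strand, and 3.03% of the 50-base words of its transcripts are also found, as their reverse complement, in transcripts of Mast4. Tlr3 overlaps the antisense gene Gm45542, with 5.30% of its words shared. Whether the authors counted by strand is not given in the sources used here. Tlr1 (chr5:64924679-64933563) and Tlr6 (chr5:64952031-64960097) are neighbours on the minus strand, 18.5 kb apart, and near-identical over part of their coding sequence. Of the 50-base words, 13.6% of those of Tlr1 are found in the other gene's transcripts and 12.3% of those of Tlr6. With all other genes counted, 15.4% of the words of Tlr1 are shared, with 308 genes. The values of both paralogs are uncertain to that extent. The longest run that both transcripts hold, 229 bases within both coding sequences, is shown because no read inside it can tell the genes apart:
Tlr1 and Tlr6, shared run: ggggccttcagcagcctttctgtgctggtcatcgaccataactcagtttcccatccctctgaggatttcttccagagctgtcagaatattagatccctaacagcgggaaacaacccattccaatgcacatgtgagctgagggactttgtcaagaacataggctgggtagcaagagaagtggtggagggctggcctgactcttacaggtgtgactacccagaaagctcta

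Of the 10 genes, Tlr7, a sensor of single-stranded RNA, had the highest level in WT microglia (7.82 ± 0.72 log2 RPKM, SD, n = 7), followed by Cd180 (6.84 ± 0.87), Tlr3 (5.63 ± 0.69) and Ly96 (5.54 ± 0.41). Tlr1, Cd14 and Tlr9 followed at 5.01 ± 0.42, 5.00 ± 0.77 and 4.97 ± 0.29, and Tlr4 stood at 4.64 ± 0.18. Tlr6 (3.70 ± 0.32) and Tlr2 (3.58 ± 0.52) had the lowest levels, and even Tlr2 was above 85.0% of the genes of the table. Tlr7 exceeded Cd180, and Cd180 exceeded Tlr3, in 7 of 7 WT libraries, as Tlr4 exceeded Tlr6, while every other pair of neighbours in that order changed places in at least 1 library. Tlr4 and Tlr6 were the only neighbours in that order whose ranges over the 7 libraries did not overlap. The deposited lengths of Tlr3 and Cd14 are 4396 and 1572 bases, while their exons in Gencode M21 cover 5207 and 1732. Their places beside genes of similar level are uncertain to that extent. In TG Me-X04+ microglia Cd180 came first, at 8.05 ± 0.60 (SD, n = 4), ahead of Tlr7 (7.85 ± 0.66) in 4 of 4 libraries. Tlr2 then stood at 5.07 ± 0.20, the seventh of the 10 and above Tlr9 (4.24 ± 0.64), Tlr4 (3.72 ± 0.47) and Tlr6 (3.19 ± 0.13).

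**Figure D1:**
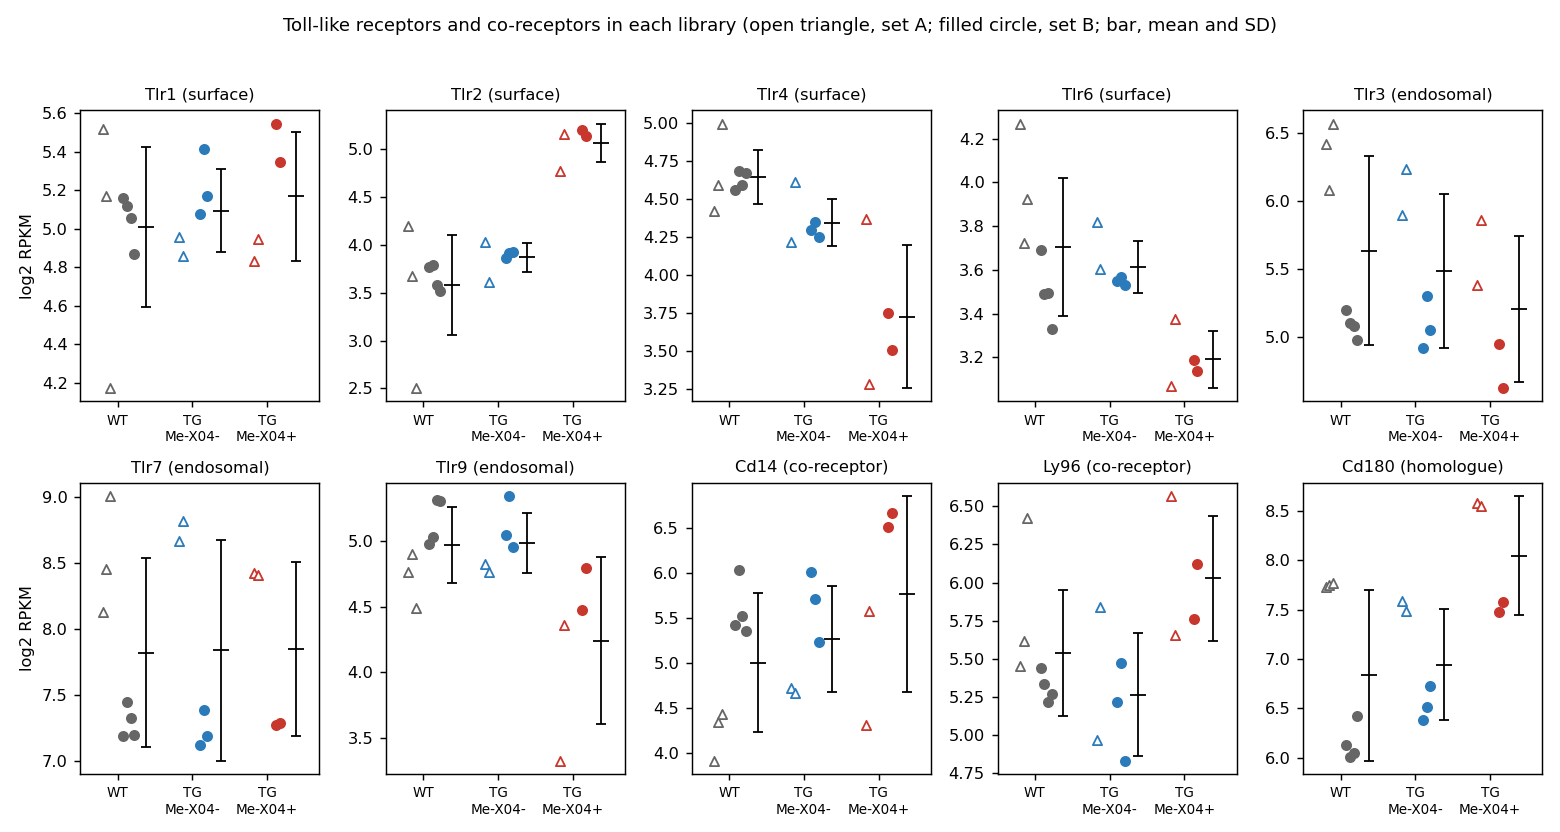
Log2 RPKM (y axis, scaled per gene) of the 10 genes in each of the 16 libraries by group (x axis), with open triangles for set A, filled circles for set B and a bar for the mean and SD of each group. The 4 TG Me-X04+ libraries of Tlr2 sit between 4.77 and 5.20, above all others, while Tlr7, Tlr3, Cd180 and Cd14 separate by set within each group.

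Comparing TG Me-X04+ with TG Me-X04- microglia asks how cells that took up Aβ differ from cells of the same line that did not. Tlr2 was the only one of the 10 genes called DE, a share to be read against the 5.49% of all genes. Tlr2 and Tlr6 had groups that did not overlap, as 7.93% of all genes did. The median log2FC was -0.17 over the 4 surface receptors, -0.28 over the 3 endosomal receptors and 0.76 over Cd14, Ly96 and the homologue Cd180, beside -0.09 over all genes. With a term for the sets in the fit, Tlr2, Cd180 and Ly96 were called DE, all higher in TG Me-X04+, where 11.9% of all genes were called.

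**Figure D2:**
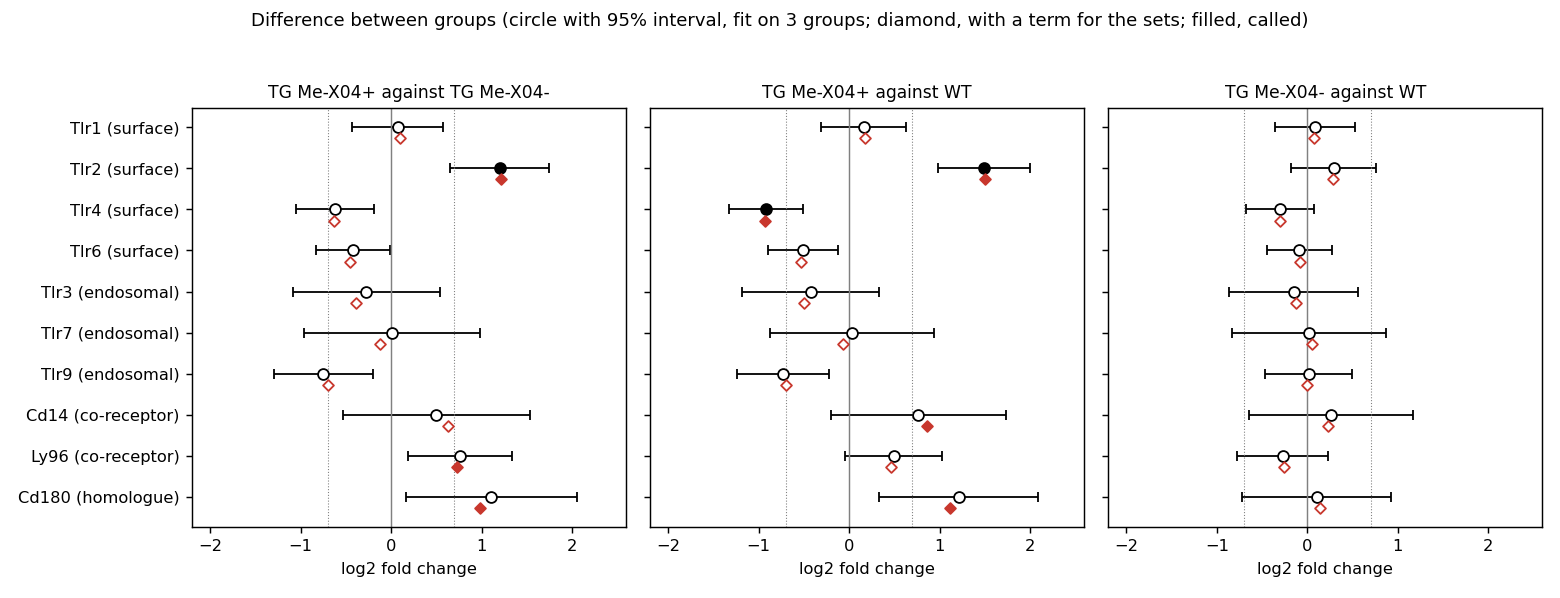
Log2FC (x axis) of each gene (y axis) in the 3 comparisons, with circles and 95% intervals from limma on the 3 groups and diamonds from the fit with a term for the sets, filled where called DE. Dotted lines mark a log2FC of -0.7 and 0.7, and Tlr2 lies beyond them in both comparisons of TG Me-X04+ microglia.

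Among the surface receptors, Tlr2, the receptor of bacterial lipopeptides, rose. Its level was 4.77, 5.16, 5.20 and 5.13 log2 RPKM in the TG Me-X04+ libraries and 4.03, 3.61, 3.86, 3.92 and 3.93 in the TG Me-X04- libraries, and in WT its lowest, median and highest values were 2.51, 3.68 and 4.19. On the deposited scale every TG Me-X04+ library was thus above every other library. The log2FC was 1.20 (SE 0.26, limma, adjusted p = 0.0110), a 2.30-fold difference, and the difference within the 4 animals was 0.74, 1.55, 1.35 and 1.21. Within set A it was 1.15 and within set B 1.27. The call was lost under quantile normalization (0.83, adjusted p = 0.0815) and under scaling by the reads outside mitochondrial genes (0.81, adjusted p = 0.118). Against WT the log2FC was 1.49 (SE 0.24, adjusted p = 0.000374), and it was called under every alternative tried there, with adjusted p from 4.05e-05 to 0.00942. The 3 genes whose centred log2 RPKM lay nearest to that of Tlr2 over the 16 libraries were Eno1b, Gusb and Ldha, at a mean absolute difference of 0.18, 0.20 and 0.21 beside a median of 0.79 over all genes.

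The RefSeq window from 250 bases before to 50 after the start of Tlr2 (chr3:83841559-83841858, GRCm38.p6, minus strand) is shown because Tlr2 is the gene called, with matches to the NF-kB consensus in capitals. They lie 173 and 172 bases (overlapping matches) and 8 bases before the start, and 8.46% of 32851 such windows hold a match on either strand. This RefSeq start lies 159 bases downstream of the start in Gencode M21. By Gencode the match at 8 bases thus falls inside the gene. None of TGANTCA (AP-1), GAGGAA (PU.1 core), CACGTG (E-box) or the interferon-stimulated response element occurs there on either strand.
Tlr2: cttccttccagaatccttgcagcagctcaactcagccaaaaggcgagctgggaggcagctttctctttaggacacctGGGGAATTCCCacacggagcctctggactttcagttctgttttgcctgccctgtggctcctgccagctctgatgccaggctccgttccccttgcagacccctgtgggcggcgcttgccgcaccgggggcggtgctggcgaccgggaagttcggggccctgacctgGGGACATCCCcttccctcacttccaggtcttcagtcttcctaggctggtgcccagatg

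Tlr4, the receptor of lipopolysaccharide, had the lowest values in the TG Me-X04+ libraries, at 4.37, 3.28, 3.75 and 3.51 log2 RPKM beside 4.21, 4.61, 4.29, 4.35 and 4.25 in TG Me-X04-. In WT the lowest, median and highest were 4.42, 4.59 and 4.99. TG Me-X04+ replicate 1 alone lay within the range of TG Me-X04-, and all 4 lay below WT. The log2FC against TG Me-X04- was -0.62 (SE 0.21, adjusted p = 0.0938), and without that library it was -0.83 (adjusted p = 0.0149), past both thresholds. Against WT Tlr4 fell by 0.92 on the log2 scale (SE 0.19, adjusted p = 0.00306), under every alternative tried there.

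Tlr6, which pairs with Tlr2 for diacylated lipopeptides, was at 3.07, 3.37, 3.19 and 3.14 log2 RPKM in TG Me-X04+ and 3.82, 3.60, 3.55, 3.57 and 3.53 in TG Me-X04- libraries. All 4 values were below those of TG Me-X04-, and lower in 4 of 4 animals. The difference was small (log2FC -0.42, SE 0.20) and did not pass (adjusted p = 0.252), and the WT range of 3.33 to 4.27 overlapped it at 3.33 to 3.37. Tlr1, the other partner of Tlr2, had 4.83, 4.95, 5.55 and 5.35 in TG Me-X04+ and 4.96, 4.86, 5.08, 5.41 and 5.17 in TG Me-X04- libraries. These ranges overlapped throughout (log2FC 0.07, 95% interval -0.43 to 0.58, adjusted p = 0.907). Under scaling by the reads outside mitochondrial genes the call moved from Tlr2 to the receptors with lower values, Tlr4 (-1.01, adjusted p = 0.00876), Tlr6 (-0.82, adjusted p = 0.0183) and the endosomal Tlr9 (-1.14, adjusted p = 0.0417). Of all 17951 genes, 948 were called lower and 249 higher under that scaling. Under quantile normalization Tlr4 alone was called (-0.83, adjusted p = 0.0205), where 407 of all genes were called lower and 421 higher.

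None of the endosomal receptors was called in limma on the 3 groups. Tlr9, the sensor of unmethylated CpG DNA, had the lowest estimate, with 3.33, 4.36, 4.47 and 4.80 log2 RPKM in TG Me-X04+ and 4.83, 4.77, 5.05, 5.34 and 4.96 in TG Me-X04- libraries. It was lower in 4 of 4 animals, with differences of -1.50, -0.40, -0.57 and -0.54. The log2FC was -0.75 (SE 0.26, adjusted p = 0.111), -0.44 without TG Me-X04+ replicate 1, and -0.70 (SE 0.19, adjusted p = 0.0194) with a term for the sets, where its absolute value is just under the fold threshold. Against WT it was -0.73 (adjusted p = 0.0520), called under median centring (-0.71, adjusted p = 0.0343), under quantile normalization (-0.98, adjusted p = 0.0248), under scaling by the reads outside mitochondrial genes (-1.03, adjusted p = 0.0244) and when WT replicate 3 (-0.81, adjusted p = 0.0332) or TG Me-X04+ replicate 4 (-0.92, adjusted p = 0.0217) was left out.

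The same window of Tlr9 (chr9:106222348-106222647, plus strand) is shown beside that of Tlr2 as the endosomal receptor with the lowest estimate. It holds GAGGAA 112 bases before the start, its reverse complement from base 13 after the start and TGANTCA 58 bases before it, all in capitals. GAGGAA is found in 28.3% and TGANTCA in 7.81% of all windows, and no match to the NF-kB consensus is found in this one. The window of Tlr3, whose log2FC was -0.28, does hold an NF-kB match, 211 bases before its RefSeq start.
Tlr9: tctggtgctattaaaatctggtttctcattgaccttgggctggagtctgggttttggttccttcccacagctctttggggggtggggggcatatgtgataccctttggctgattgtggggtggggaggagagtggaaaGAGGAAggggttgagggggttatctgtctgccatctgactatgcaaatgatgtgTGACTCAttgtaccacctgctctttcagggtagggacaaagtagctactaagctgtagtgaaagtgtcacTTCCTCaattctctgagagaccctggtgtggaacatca

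Tlr7 and Tlr3, which sense single- and double-stranded RNA, varied more between the sets than between the groups. Tlr7 had 8.43, 8.41, 7.27 and 7.28 log2 RPKM in TG Me-X04+ and 8.67, 8.82, 7.12, 7.38 and 7.19 in TG Me-X04- libraries. In each group the set A libraries were the high ones, and in WT they spanned 8.12 to 9.01 beside 7.19 to 7.44 in set B. The log2FC of Tlr7 was 0.01 (95% interval -0.96 to 0.98, adjusted p = 0.994), and -0.12 (SE 0.15, adjusted p = 0.674) with a term for the sets. Tlr3 had 5.38, 5.86, 4.95 and 4.63 in TG Me-X04+ and 5.90, 6.24, 4.92, 5.31 and 5.05 in TG Me-X04- libraries. Its log2FC was -0.28 (SE 0.39, adjusted p = 0.764), and -0.38 (SE 0.15, adjusted p = 0.112) with the term, and 3 of 4 animals were lower.

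Cd14, Ly96 and the homologue Cd180 all had positive estimates against TG Me-X04-, below that of Tlr2. Cd180 had 8.58, 8.56, 7.48 and 7.58 log2 RPKM in TG Me-X04+ and 7.59, 7.49, 6.38, 6.51 and 6.73 in TG Me-X04- libraries. The groups overlapped because set A was high in both, and within each set every TG Me-X04+ library was above every TG Me-X04- library. The difference within the 4 animals was 0.99, 1.07, 1.10 and 1.07, the narrowest spread of the 10 genes in this comparison. The log2FC was 1.11 with an SE of 0.45 (adjusted p = 0.179), not called. With a term for the sets it was 0.98 with an SE of 0.14 (adjusted p = 0.000277), called. With the replicate number as a block it was 0.95 over all 3 groups (adjusted p = 0.0877) and 1.06 over the 4 paired animals alone (adjusted p = 0.00211), where it was called. Quantile normalization gave 0.37 (adjusted p = 0.680), while scaling by non-mitochondrial reads gave 0.72 (adjusted p = 0.228). Against WT the log2FC was 1.21 (SE 0.42, adjusted p = 0.0618), called with the term (1.12, adjusted p = 1.09e-05), with array weights (1.49, adjusted p = 0.0110), by voom on the recovered reads (1.22, adjusted p = 0.0401) and when WT replicate 1, 2 or 3 was left out (1.36 to 1.37). These were 3 of 14 alternatives and 3 of 11 fits without 1 library. Over the alternatives the log2FC ran from 0.44 to 1.49 (limma, adjusted p from 1.09e-05 to 0.476).

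The window at the start of Cd180 (chr13:102693308-102693607, plus strand) is shown as that of the gene with the steadiest difference within animals. It holds none of the 5 motifs searched, on either strand.
Cd180: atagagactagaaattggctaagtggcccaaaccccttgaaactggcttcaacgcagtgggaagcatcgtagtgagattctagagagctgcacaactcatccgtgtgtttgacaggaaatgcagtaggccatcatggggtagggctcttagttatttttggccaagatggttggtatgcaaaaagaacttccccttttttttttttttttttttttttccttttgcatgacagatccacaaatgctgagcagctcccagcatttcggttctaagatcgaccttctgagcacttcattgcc

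**Figure D3:**
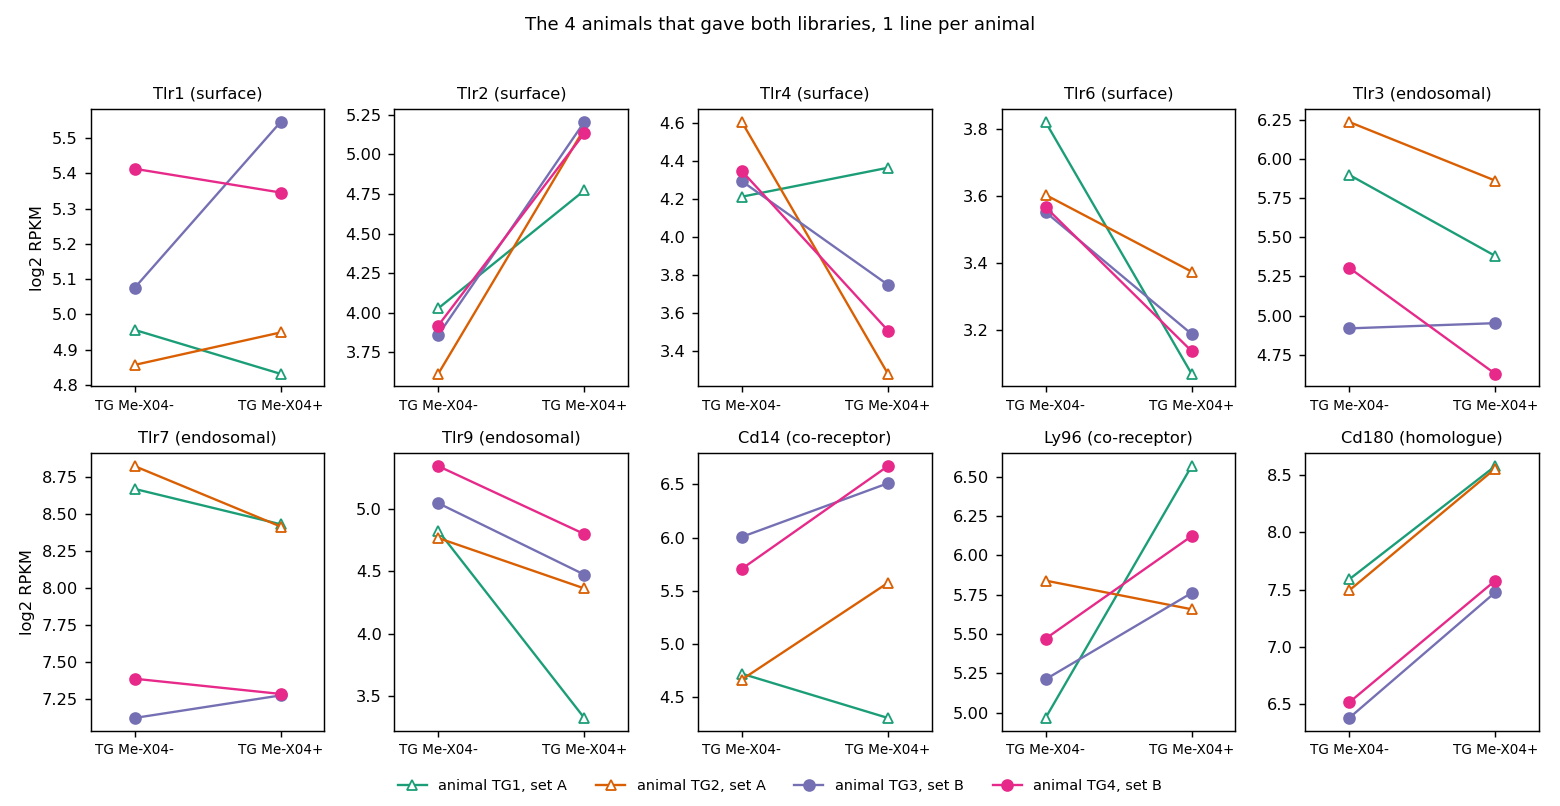
Log2 RPKM (y axis, scaled per gene) in the TG Me-X04- and the TG Me-X04+ library of each of the 4 animals that gave both, 1 line per animal, with open triangles for set A and filled circles for set B. The 4 lines of Cd180 run in parallel from 2 starting levels, and those of Tlr2 rise by 0.74 to 1.55.

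Ly96, the subunit of the Tlr4 complex that holds the lipid, was at 6.57, 5.66, 5.76 and 6.12 log2 RPKM in TG Me-X04+ and 4.97, 5.84, 5.21, 5.47 and 4.83 in TG Me-X04- libraries. It was higher in 3 of 4 animals, with TG Me-X04- replicate 2 above the lowest pair of TG Me-X04+ values. The log2FC was 0.76 (SE 0.27, adjusted p = 0.120), and 0.73 (SE 0.23, adjusted p = 0.0477) with a term for the sets, called. Against WT it was 0.49 (adjusted p = 0.223). Cd14, which passes lipopolysaccharide to that complex, was at 4.31, 5.58, 6.51 and 6.67 in TG Me-X04+ and 4.72, 4.67, 6.01, 5.71 and 5.23 in TG Me-X04- libraries. Its set A libraries were the low ones in every group, and TG Me-X04+ replicate 1 was below every TG Me-X04- library. The log2FC was 0.50 (SE 0.49, adjusted p = 0.648), and 0.63 (SE 0.24, adjusted p = 0.0965) with the term. Without TG Me-X04+ replicate 1 it was 0.98 (adjusted p = 0.264) and without TG Me-X04+ replicate 4 it was 0.20 (adjusted p = 0.852), and quantile normalization gave 0.0041 and scaling by non-mitochondrial reads 0.11. Against WT it was 0.76 (adjusted p = 0.307), and 0.86 (adjusted p = 0.00911) with the term, called. Over all 3 groups with the replicate block it was 1.08 against WT (adjusted p = 0.0474), called, but there the block joins WT libraries to TG libraries of other animals.

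In TG Me-X04+ against WT microglia 2 of the 10 genes were called, Tlr2 higher and Tlr4 lower, where 14.3% of all genes were called, 8.25% higher and 6.02% lower. These 2 were also the genes whose groups did not overlap, as for 10.5% of all genes. With a term for the sets Cd14, Cd180, Tlr2 and Tlr4 were called, where 21.8% of all genes were. This comparison and that with TG Me-X04- share the TG Me-X04+ libraries.

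TG Me-X04- against WT microglia asks what the genotype goes with in cells without the dye. None of the 10 genes was called by limma, where 0.201% of all genes were. None was under an unadjusted p of 0.05, called with a term for the sets (0.563% of all genes) or called by voom on the recovered reads. No gene had groups that did not overlap, as 1.06% of all genes did. The log2FC ranged from -0.30 for Tlr4 (95% interval -0.68 to 0.08) to 0.29 for Tlr2 (-0.18 to 0.77). The intervals of Tlr2, Tlr3 (-0.86 to 0.56), Tlr7 (-0.83 to 0.87), Cd14 (-0.64 to 1.17), Ly96 (-0.77 to 0.23) and Cd180 (-0.72 to 0.93) reach past the fold threshold, so a change of that size was not excluded for these 6 genes.

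A factor applied to all genes of a library cancels in the difference between a receptor and its partner. Quantile normalization is not such a factor. For 5 known pairs and 3 comparisons, exact two-sided permutation tests were run, with p adjusted over the 15. They treat all libraries as exchangeable and leave the 4 shared animals and the sets aside, and an exact sign-flip permutation test within 4 animals could not go below p = 0.125. Within the 4 animals, Ly96 less Tlr4 was higher in 4 of 4 TG Me-X04+ libraries (by 1.10 to 1.49), and Tlr1 less Tlr2 and Tlr6 less Tlr2 were lower in 4 of 4. Ly96 exceeded Tlr4 by 2.20, 2.38, 2.01 and 2.62 on the log2 scale in TG Me-X04+ libraries, and by 0.58 to 1.23 in TG Me-X04- and 0.60 to 1.43 in WT libraries. The TG Me-X04+ libraries stood apart from all others, and the mean difference grew by 1.38 against TG Me-X04- (exact p = 0.0159, the smallest the design allows, adjusted p = 0.0397) and by 1.41 against WT (exact p = 0.00606, the smallest, adjusted p = 0.0303). Tlr6 less Tlr2 was -1.70, -1.79, -2.02 and -2.0 in TG Me-X04+, -0.40 to -0.01 in TG Me-X04- and -0.30 to 1.42 in WT libraries. It thus moved from near 0 to well below it, by -1.62 against TG Me-X04- and -2.0 against WT, with the same p-values as Ly96 less Tlr4. Tlr1 less Tlr2 moved by -1.12 against TG Me-X04- and by -1.33 against WT, again with no overlap and the same p-values. Tlr1 itself had a log2FC of 0.07 against TG Me-X04-, so this difference largely repeats that of Tlr2. Both pairs with Tlr2 use the same Tlr2 values and are not separate evidence. The pairs were chosen with earlier results of these data known. Cd14 less Tlr4 was -0.06, 2.30, 2.76 and 3.17 in TG Me-X04+ libraries and 0.06 to 1.71 in TG Me-X04- libraries, a difference of 1.12 that did not pass (exact p = 0.159, adjusted p = 0.238), with TG Me-X04+ replicate 1 lowest of all 9. Without that library it was 1.82 (adjusted p = 0.0670), and without TG Me-X04+ replicate 4 it was 0.74 (exact permutation test, adjusted p = 0.487). Between TG Me-X04- and WT none of the 5 pairs passed (adjusted p from 0.101 to 0.859).

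**Figure D4:**
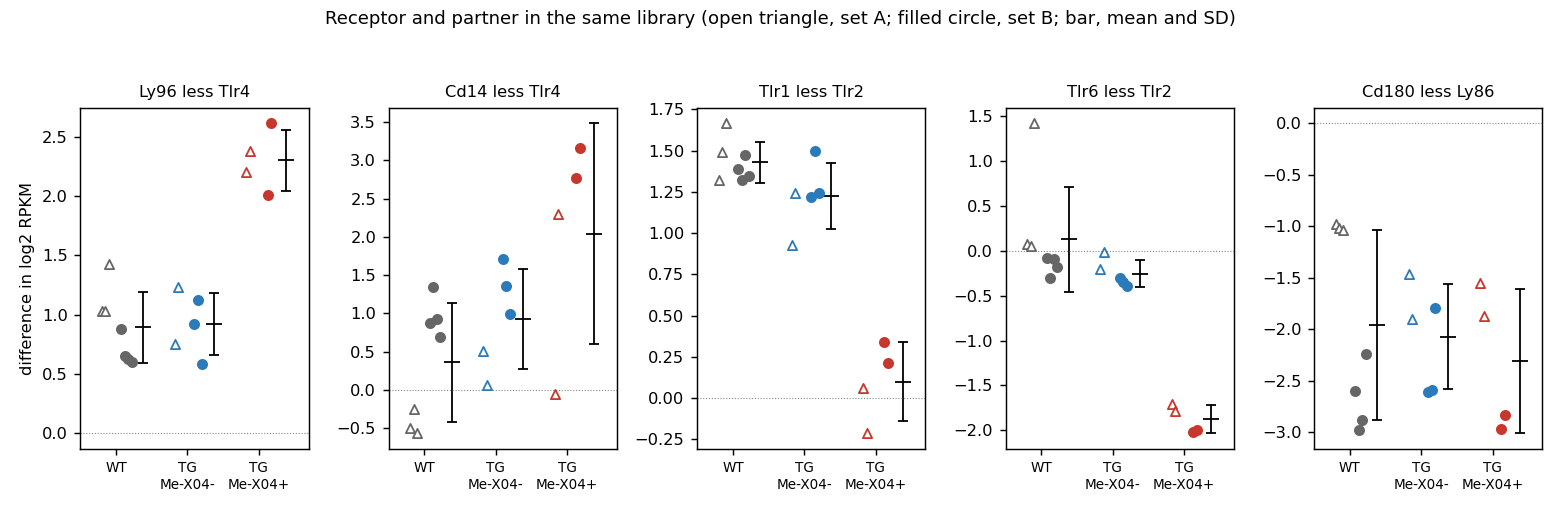
Difference in log2 RPKM between a gene and its partner within each library (y axis, scaled per pair) by group (x axis), with open triangles for set A, filled circles for set B and a bar for the mean and SD. Ly96 less Tlr4 is above 2 in all 4 TG Me-X04+ libraries and under 1.5 in the other 12, and Tlr6 less Tlr2 is below -1.5 only in TG Me-X04+.

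Ly86, the partner of Cd180, rose in TG Me-X04+ against TG Me-X04- microglia (10.4 against 9.01 log2 RPKM, log2FC 1.34, SE 0.22, adjusted p = 0.00209), and was higher in 4 of 4 animals, by 1.03 to 1.46. Its deposited length is 997 bases and that of its exons in Gencode M21 is 3632, so its level is not set beside that of Cd180 here. Cd180 less Ly86 differed by -0.23 between these groups (exact p = 0.508, adjusted p = 0.622), with a spread between libraries (SD 0.70 and 0.51) wider than the difference. Set A alone gave -0.028 and set B alone -0.57, and the range was -0.49 to -0.013 with 1 library left out.

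The other genes of the pathway were taken from fixed lists. Of the 5 other Toll-like receptors, Tlr5, the flagellin receptor, was called, falling to -2.62, -0.98, -0.35 and 1.33 log2 RPKM in TG Me-X04+ libraries (9 to 282 reads) from 1.10 to 2.65 in TG Me-X04- libraries (202 to 824 reads). Its log2FC was -2.70 (SE 0.54, adjusted p = 0.00733) and -3.42 against WT (adjusted p = 0.000180). Of all genes, 5.49% were called and 2.06% were lower against TG Me-X04-, and 14.3% were called and 6.02% were lower against WT. The groups overlapped at TG Me-X04+ replicate 4. The other 4 were not called: Tlr13, the only abundant one, had a log2FC of -0.24 (adjusted p = 0.762) and Tlr12 0.12 (adjusted p = 0.919), while Tlr8 (-1.91, adjusted p = 0.281) and Tlr11 (-2.42, adjusted p = 0.209) had 1 to 12 reads in the TG Me-X04+ libraries. The median of the 5 genes, beside -0.09 over all genes, is the value of Tlr8. Of 13 genes of receptor partners, trafficking and processing, 3 were called against TG Me-X04-, all higher, where 3.44% of all genes were called higher: Ly86 and the lysosomal proteases Ctsb (1.54) and Ctsl (1.55), which can cleave endosomal receptors. Ctss, another such protease, was called against WT (1.58, adjusted p = 0.00650), while against TG Me-X04- its log2FC was 1.20 (adjusted p = 0.0868), called with a term for the sets (1.12, adjusted p = 0.000499). Of 25 adaptors, kinases and transcription factors none was called against TG Me-X04- by limma on the 3 groups, and 3 (12%) had an unadjusted p under 0.05, as 18.7% of all genes did. Against WT, where 14.3% of all genes were called, the ubiquitin ligases Peli1 (-0.71) and Peli2 (0.79) were called in opposite directions. Myd88, the adaptor of all the receptors above but Tlr3, was looked at after its values had been seen: its log2FC was -1.24 (SE 0.52, adjusted p = 0.193), and -1.46 against WT (adjusted p = 0.0509).

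Of 10 negative regulators, Il1rl1 (ST2, a receptor that holds back Toll-like receptor signalling) was called against TG Me-X04- (1.57, SE 0.44, adjusted p = 0.0466), where 5.49% of all genes were called and 3.44% were higher. Of 8 response genes, the chemokines Ccl3 (2.73, limma, adjusted p = 0.000230) and Ccl4 (2.21, adjusted p = 0.0107) were called higher, against the same 3.44%, and the other 6 were not. Ccl3 was also the 1 gene of all these lists called in TG Me-X04- against WT microglia (2.20, SE 0.29, adjusted p = 0.00157). Cxcl10 was called in TG Me-X04+ against WT (2.36, limma, adjusted p = 0.0488), where 14.3% of all genes were called and 8.25% were higher. Its mean was 0.71 log2 RPKM with the dye, 1.10 in TG cells lacking it and -1.65 in WT. Libraries with the dye ran from -2.03 to 2.16 (6 to 229 reads) and overlapped the WT range of -3.29 to -0.60. For Cxcl10 the log2FC of TG Me-X04- against WT was larger, at 2.75, the highest of the 8 response genes, and was not called.

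**Figure D5:**
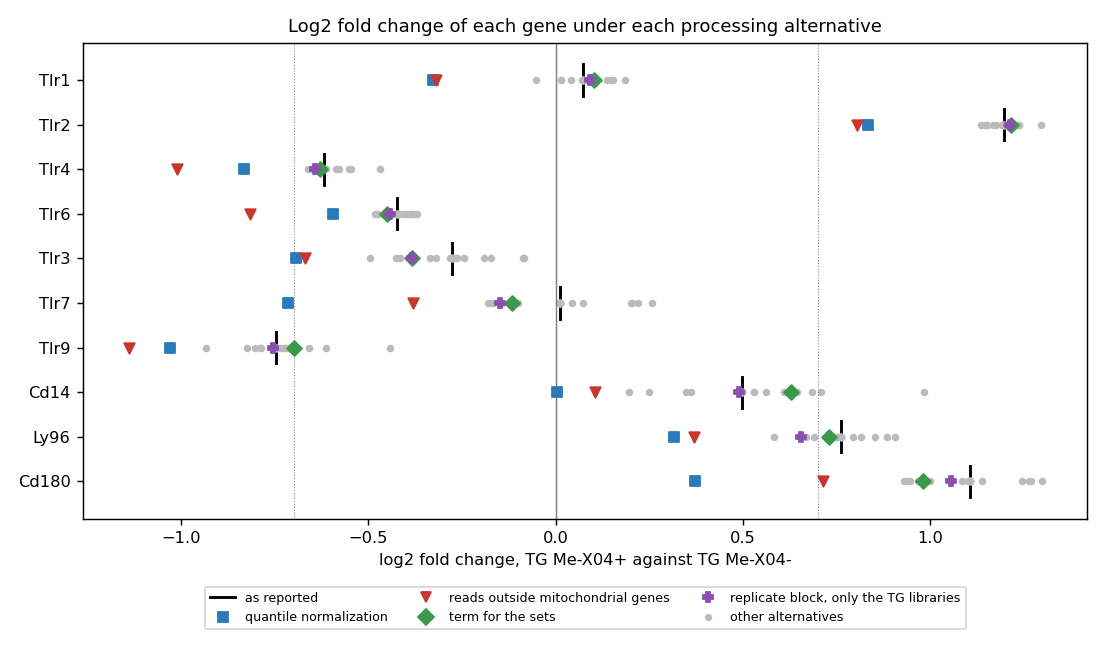
Log2FC in TG Me-X04+ against TG Me-X04- microglia (x axis) of each gene (y axis) as reported (black bar) and under each alternative, with symbols for the alternatives named in the key and grey points for the rest. Quantile normalization and scaling by reads outside mitochondrial genes move all 10 genes to lower values, Tlr2 to 0.83 and 0.81.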

How the data were processed

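RNA of sorted microglia was amplified and sequenced (Ovation kits, single-end reads). Per the methods of the study, the authors trimmed reads with Trim Galore 0.4.4, aligned them to GRCm38 with STAR 2.5.4b, counted them with featureCounts, filtered and scaled the counts in edgeR 3.24.3, and deposited log2 RPKM per gene and library. Handling of strand and of reads with several hits in counting is not given in the sources used here. The deposited columns of the authors' own comparisons (fold changes, test statistics and p-values) were not used.

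The 16 libraries were grouped by their labels. The test of the study needs counts, so log2 RPKM of all 17951 genes were fitted in limma 3.58.1 (R 4.3.3) with a mean-variance trend, 3 groups in 1 fit, two-sided, and p-values were adjusted over all of them (Benjamini-Hochberg). Every one of the 10 genes is named, pathway genes where called in a comparison, and for each of the 10 called against TG Me-X04- the 3 genes with the nearest centred values. The genes, lists and pairs were chosen with earlier results of these data known. Read numbers were recovered from the steps of the linear values, all within 0.01 of a whole read, and used for depth and voom. Other normalizations, pseudocounts, filters, weights, left-out libraries, a term for the sets and the replicate block were tried. Libraries of the same number from the TG groups come from the same animal per the labels, and their deviations correlated (lowest r = 0.29 over 4 pairs), beside a mean of 0.27 for other numbers of the same set. WT numbers are other animals. Scripts were tested on simulated data. Intervals are 95%.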

Additional observations from a re-analysis of the deposited data

Results flagged for a closer look

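In 5 of 45 groups of values tested by Dixon's criterion, 1 library stood apart from the rest of its group, where chance gives about 1 group in 20. Tlr2 was at 2.51 log2 RPKM in WT replicate 3, with the nearest WT library at 3.52. Ly96 was at 6.42 in the same library, with the nearest at 5.62, and Tlr6 less Tlr2 was 1.42 there, with the nearest at 0.07. Tlr2 was at 4.77 in TG Me-X04+ replicate 1, with the nearest at 5.13. Tlr6 was at 3.82 in TG Me-X04- replicate 1, with the nearest at 3.60.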

How the results depend on the processing

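Against TG Me-X04-, Tlr2 was called in 13 of 15 alternatives and in 9 of 9 fits without 1 library (adjusted p from 0.0143 to 0.0346, limma), and against WT Tlr2 and Tlr4 were called in all 25. The number of the 10 genes called against TG Me-X04- was 3 with scaling by the reads outside mitochondrial genes, 3 with a term for the sets, 2 with the replicate block over the TG libraries alone (added after the data were seen), and 1 to 2 with 1 library left out. Of all 17951 genes, that scaling called 1197 and the term for the sets 2142. Against WT the number of the 10 genes was 4, 4 and, with 1 library left out, 2 to 4. There the scaling called 3079 and the term 3919 of all genes. The replicate block changed no other call than those given for Cd180 and Cd14, and over all 3 groups it joins WT to TG libraries of other animals.

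Estimates near 0 changed sign. In TG Me-X04+ against TG Me-X04-, Tlr1 was -0.33 under quantile normalization, -0.32 with reads outside mitochondrial genes and -0.052 to 0.19 without 1 library. Tlr7 was -0.72, -0.38 and -0.18 to 0.26 there, -0.12 with the set term, -0.14 with the replicate block and -0.15 with the block over the TG libraries. In TG Me-X04+ against WT, Tlr1 was -0.21 and -0.14 under these scalings, and Tlr7 was -0.74 and -0.27, -0.063 with the set term, -0.35 with the block and -0.16 to 0.23 without 1 library. In TG Me-X04- against WT, array weights gave 0.03 for Tlr6, 0.048 for Tlr3 and -0.063 for Tlr9, quantile normalization -0.021 for Tlr7, reads outside mitochondrial genes 0.0010 for Tlr6, and the block -0.21 for Tlr7 and -0.14 for Cd180. Without 1 library, that comparison ranged from -0.059 to 0.26 for Cd180, -0.054 to 0.17 for Tlr1, -0.34 to 0.0045 for Tlr3, -0.15 to 0.0052 for Tlr6, -0.23 to 0.22 for Tlr7 and -0.072 to 0.074 for Tlr9. The cause was not tested.

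Without 1 library fewer arrangements exist, and the exact permutation tests of partners against TG Me-X04- no longer passed (adjusted p from 0.0612 to 0.0893), with Ly96 less Tlr4 at 1.28 to 1.48, Tlr1 less Tlr2 at -1.20 to -1.02 and Tlr6 less Tlr2 at -1.68 to -1.56. Against WT they were 1.31 to 1.51, -1.41 to -1.23 and -2.07 to -1.79, and leaving out any of the 4 TG Me-X04+ libraries ended each call. In TG Me-X04- against WT they were -0.049 to 0.12, -0.27 to -0.13 and -0.45 to -0.16, and Cd180 less Ly86 -0.28 to 0.052. There Tlr6 less Tlr2 passed without TG Me-X04- replicate 2 (exact permutation test, adjusted p = 0.0455) and Tlr1 less Tlr2 without TG Me-X04- replicate 4 (adjusted p = 0.0227). Within set A, Ly96 less Tlr4 was -0.17 and Tlr1 less Tlr2 -0.41 in TG Me-X04- against WT, and Tlr1 less Tlr2 -1.57 in TG Me-X04+ against WT, and within set B Cd180 less Ly86 was 0.34 in TG Me-X04- against WT.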
